A study of Saccharomyces cerevisiae with 12 samples.

Results

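Wild-type budding yeast (Saccharomyces cerevisiae) in glucose medium (YPD) was compared with wild type in galactose medium (YPGal), across all genes. The members were the samples whose labels gave the genotype WT, 3 replicates in each medium, which were 6 of the 12 RNA-seq libraries of the series. Per the labels, WT was the YEF4734A strain (YEF473A in the growth protocol), cells grew in YPGal at 30°C, and treated cultures were switched from YPGal to YPD. The time spent in YPD, and whether the media of one replicate number came from one starting culture, are not given in these sources. Another 6 libraries came from H3i (DGS200.1), made from YEF473A by deleting HHT1, a histone H3 gene, and putting the other H3 gene, HHT2, under the GAL1 promoter, in the same media. H3i libraries entered the test only to estimate the spread, and are described only where stated. RNA of replicates 1 and 2 was extracted with a MagMax kit and that of replicate 3 with Trizol and glass beads, so that kit and replicate 3 cannot be told apart.

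Yeast takes up glucose before other sugars. In galactose, the sensor Gal3 frees the activator Gal4 from its inhibitor Gal80, and Gal4 turns on the genes of the Leloir pathway, which converts galactose to glucose 6-phosphate. Glucose turns these genes off, lowers the genes for respiration, for gluconeogenesis and for other carbon sources through repressors such as Mig1, and induces the HXT genes of hexose uptake by relieving repression through Rgt1.

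Gene counts totalled 2525223 (YPGal) and 2312502 (YPD) in replicate 1, 44709318 and 52278567 in replicate 2, and 8649749 and 9258447 in replicate 3. Levels are given in CPM, counts scaled so that all genes of a library sum to 1000000, and are shares of the RNA of a culture: fewer cells in a given state and less RNA per cell cannot be told apart. A count of 0 allows a level of up to 3 counts, which was 1.19 and 1.30 CPM in replicate 1, 0.0671 and 0.0574 CPM in replicate 2 and 0.347 and 0.324 CPM in replicate 3. Differences are log2 of YPD over YPGal, so that a negative value is lower in glucose. Because replicate 2 lacked many genes and WT replicate 3 differed in marker genes, both were examined first.

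In replicate 2, 45.8% of 3554 nuclear genes in YPGal and 41.3% of 3091 in YPD were lost, meaning that they stood under 0.1 of the mean of replicates 1 and 3 of that medium, among genes at 50 CPM or more in both. By the same share, replicate 1 lost 0.760% of genes against replicate 3 in YPGal and 0.893% in YPD. The loss followed the strand of the gene. In YPGal it took 70.2% of genes on the C strand and 21.3% of those on the W strand (the strands as the last letter of a systematic name gives them). In YPD it took 66.6% and 16.4%.

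The strand that was lost depended on the chromosome and on the medium. On chromosome VIII, C-strand genes were lost at 94.2% in YPGal and 95.5% in YPD, and W-strand genes at 11.8% and 5.95%. On chromosome XV, by contrast, YPGal lost 82.3% of W-strand and 5.70% of C-strand genes, while YPD lost 6.47% and 80.9%. On chromosome II, YPGal lost 56.2% of C-strand and 1.90% of W-strand genes, and YPD lost 0% and 57.1%. Chromosome I lost 0 of 42 genes in YPGal and 1 of 37 in YPD. A gene of chromosome II or XV could therefore be read in 1 medium of replicate 2 and lost in the other. The cause of the loss was not tested. Replicate 2 was left out of the test. Its values are given for genes it read, except where stated. A gene counts as lost in a medium if it stood under the same share there at any level. Summed levels of a list in replicate 2 include the genes it lost.

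**Figure D1:**
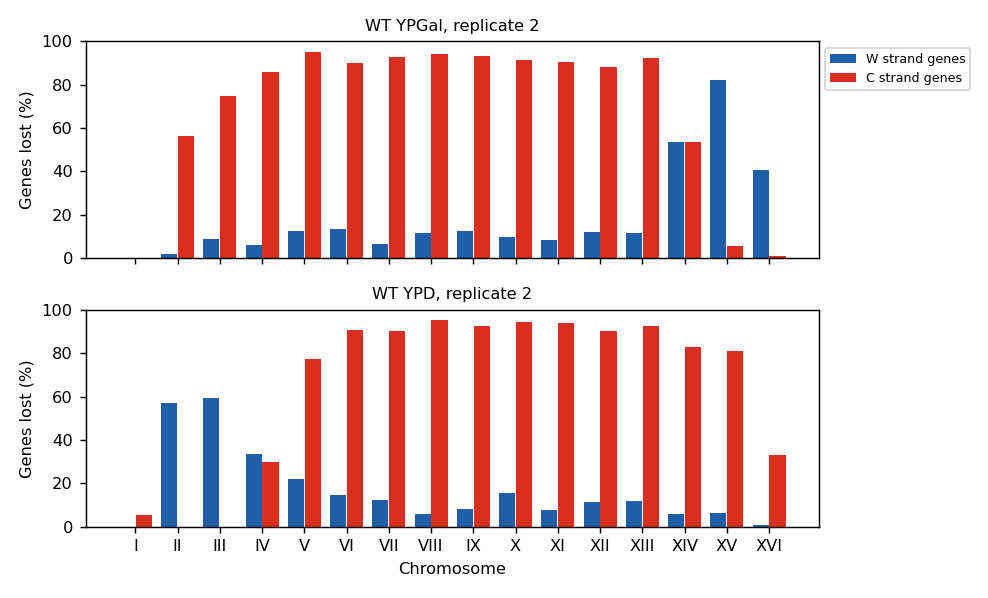
Share of genes lost in replicate 2 of wild type (%, y axis) by chromosome (x axis) and strand (W blue, C red), with YPGal in the upper and YPD in the lower panel. The loss was 88.3% to 95.5% on the C strand of chromosomes VI to XIII in both media, and moved to the W strand on chromosome XV in YPGal (82.3%) and on chromosome II in YPD (57.1%).

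The libraries labelled WT replicate 3 carried other marker and mating genes than replicates 1 and 2. TRP1, of tryptophan synthesis, was read at 95.0 CPM (YPGal) and 84.1 CPM (YPD) in replicate 3 and had 0 counts in the other 4 WT libraries. LYS2, of lysine synthesis, had 0 counts in both libraries of replicate 3 and stood at 154 and 139 CPM in replicate 1. HIS3 followed TRP1, and LEU2 and URA3 followed LYS2, while ADE2 was read in all 6 libraries. URA3 stood at 96.6 CPM in YPGal against 338 CPM in YPD in replicate 1, and at 146 and 542 CPM in replicate 2.

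Genes of the mating types differed in the same libraries. STE2, the receptor for alpha pheromone that a cells make, stood at 255 and 900 CPM in replicate 1 and at 16.5 and 14.6 CPM in replicate 3. BAR1, the protease of a cells that degrades alpha pheromone, stood at 152 and 517 CPM in replicate 1, 148 and 355 CPM in replicate 2, and 12.1 and 12.6 CPM in replicate 3. STE3, the receptor for a pheromone that alpha cells make, stood at 354 and 601 CPM in replicate 3 and under 10 CPM elsewhere in WT. MF(ALPHA)2, which encodes alpha pheromone, stood at 183 and 638 CPM in replicate 3 and at 7.38 to 25.8 CPM elsewhere in WT. Of 7 a-specific genes, all but ASG7 were lower in both libraries of replicate 3 than in replicate 1. The summed level of the a-specific genes was 0.104% and 0.262% of gene counts in replicate 1 (YPGal and YPD), 0.0337% and 0.110% in replicate 2, and 0.00684% and 0.00626% in replicate 3. That of the 4 alpha-specific genes was 0.00772% and 0.00424% in replicate 1, 0.00332% and 0.00107% in replicate 2, and 0.319% and 0.407% in replicate 3. By the share used here, replicate 2 read 0 of these 4 genes and 4 of the 7 a-specific genes in both media. Its low values for alpha-specific genes, STE3 and MF(ALPHA)2 among them, cannot be told apart from the loss. Both media of a replicate carried the same marker genes, so the medium difference within a replicate compares libraries of 1 kind. Strain, kit and culture cannot be told apart where replicates 1 and 3 differ.

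**Figure D2:**
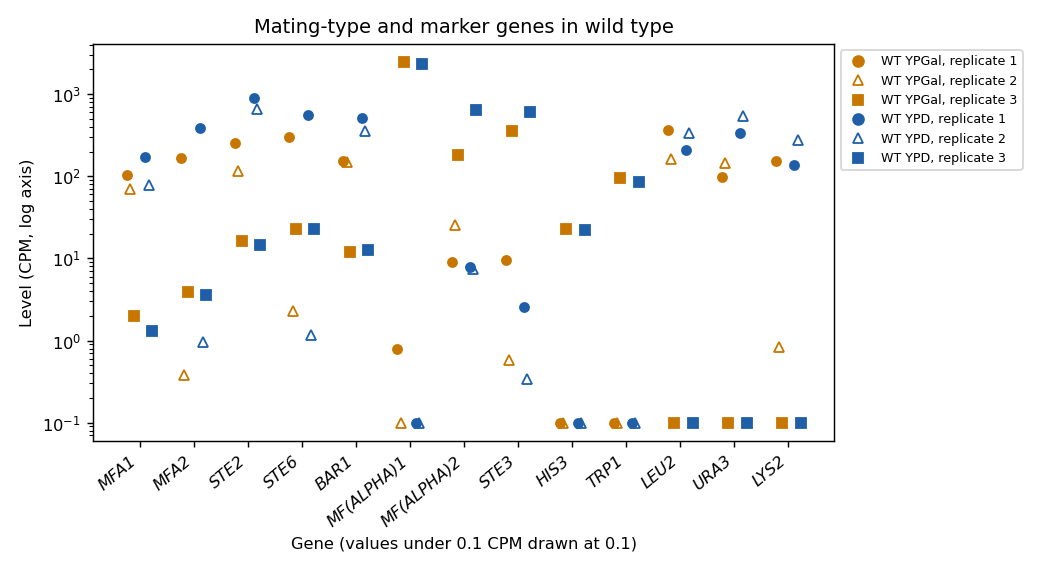
Levels of mating-type and marker genes (CPM, log axis) in the 6 wild-type libraries, YPGal in orange and YPD in blue, with replicate 1 as circles, replicate 2 as open triangles and replicate 3 as squares. The squares lie apart from the other symbols, with TRP1 at 95.0 and 84.1 CPM in replicate 3 alone and LYS2 at 0 counts there.

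The test compared the media within each replicate pair, using replicates 1 and 3 (n = 2 libraries per medium in WT, with 4 H3i libraries to help estimate the spread). edgeR called 43 of 6354 genes at a Benjamini-Hochberg adjusted p under 0.05, 0.677% of the genes tested. Of these, 7 rose in YPD (0.11%) and 36 fell (0.567%), and 1156 genes had an unadjusted p under 0.05. All 43 moved the same way in both pairs. Fitted to the 4 WT libraries alone, with the spread taken from them only and 1 residual degree of freedom, the same test called 444 of 5968 genes (7.44%), 89 higher (1.49%) and 355 lower (5.95%), among them all 43. Another, untested description counted genes at least 2-fold apart the same way in both pairs, with 10 CPM or more in the higher library of each. It held 226 of 5260 genes (4.3%), 22 higher (0.418%) and 204 lower (3.88%). The labels call the replicates biological without saying how cultures were kept apart, so the p-values measure the spread between these libraries. Where 1 WT library is left out below, the block takes up its partner. The WT difference then rests on the other pair alone, with the spread taken from H3i, so such calls are weak checks.

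The 4 lowest differences were all of galactose genes. GAL1, galactokinase (YBR020W, sacCer3 chromosome II, 279021 to 280607), stood in YPGal at 8690, 6620 and 4970 CPM in replicates 1, 2 and 3, and in YPD at 9.51, 6.62 and 14.8 CPM. GAL10, the epimerase (YBR019C, chromosome II, 276253 to 278352), stood at 7840, 5950 and 2920 CPM in YPGal and 19.9, 7.44 and 10.5 CPM in YPD. GAL7, the uridylyltransferase (YBR018C, chromosome II, 274427 to 275527), stood at 4370, 3220 and 2670 CPM in YPGal and 2.59, 10.5 and 13.0 CPM in YPD. The media did not overlap for any of these genes, replicate 2 included. GAL2, the galactose permease (YLR081W, chromosome XII, 290212 to 291936), stood at 9530, 7630 and 2410 CPM in YPGal and 1.30, 6.04 and 6.05 CPM in YPD, where the first value rests on 3 counts. GAL3, the sensor (YDR009W, chromosome IV, 463434 to 464996), stood at 418, 508 and 170 CPM in YPGal and 10.8, 14.1 and 14.0 CPM in YPD. In YPGal, replicate 3 was the lowest library for all 5 genes.

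The fitted log2 differences were −9.96 ± 1.34 (SE) for GAL2 (adjusted p = 0.0266), −8.89 ± 1.04 for GAL1 (0.0145), −8.70 ± 0.95 for GAL7 (0.0142), −8.20 ± 0.87 for GAL10 (0.0142) and −4.19 ± 0.48 for GAL3 (0.0145). Of the other galactose genes, GCY1, an aldo-keto reductase under Gal4 control (−4.95 ± 0.61, adjusted p = 0.0192), and PGM2, the phosphoglucomutase that ends the pathway (−3.90 ± 0.42, 0.0142), also fell. So 7 of 12 tested genes were called, each at least 2-fold lower in both pairs. Over all genes 0.567% were called lower, and 3.88% were 2-fold lower in both pairs. GCY1 stood at 1090 and 515 CPM in YPGal and 14.3 and 29.8 CPM in YPD (replicates 1 and 3), and PGM2 at 240 and 490 CPM against 9.95 and 39.4 CPM.

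The other 5 galactose genes did not pass the test. GAL80, the inhibitor of Gal4, stood at 217 and 167 CPM in YPGal and 97.3 and 42.2 CPM in YPD in replicates 1 and 3 (−1.41 ± 0.37, adjusted p = 0.141). PCL10, a cyclin for the kinase Pho85, stood at 214, 319 and 120 CPM in YPGal and 30.3, 63.6 and 65.8 CPM in YPD (−1.63 ± 0.47, 0.167). MTH1, a co-repressor of HXT genes, stood at 306 and 120 CPM against 61.4 and 77.3 CPM (−1.29 ± 0.39, 0.184). All 3 genes were lower in YPD in both pairs. Each was called lower by the fit of the 4 WT libraries alone, which called 5.95% of all genes lower. GAL4 itself stood at 93.1 and 37.8 CPM in YPGal and 34.2 and 37.0 CPM in YPD (−0.54 ± 0.33, 0.404), and FUR4, the uracil permease next to GAL1, at 72.9, 106 and 177 CPM against 72.2, 10.8 and 85.3 CPM (−0.39 ± 0.32, 0.546). FUR4 is a W-strand gene of chromosome II, where YPD of replicate 2 lost 57.1% of genes. Partial loss and a medium difference cannot be told apart in its 10.8 CPM. As a whole, the 12 genes took 3.31%, 2.56% and 1.48% of gene counts in YPGal (replicates 1, 2 and 3) and 0.0364%, 0.0164% and 0.0435% in YPD.

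The upstream regions of these genes are shown because Gal4 binds CGG and CCG triplets at a fixed distance. The letters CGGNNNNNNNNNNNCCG, which read the same on both strands, were searched in the 500 bases before each start codon, in the RefSeq R64 sequence (that of sacCer3). They were in 10 of the 12 galactose genes (83.3%), 8 of the 36 genes that fell (22.2%), 2 of the 7 that rose (28.6%) and 2.99% of 5844 protein-coding genes. The first 2 shares overlap. Of the 8 genes, GAL1, GAL2, GAL3, GAL7, GAL10 and GCY1 are galactose genes, and the others were ISF1 and LAP3. The galactose list holds genes known to be under Gal4 control, so its high share is partly set by that choice. The windows below run 5′ to 3′ on the strand of the gene, with matches in capitals. The GAL1 window is chrII:278558-278631 (+ strand) and is shared with GAL10, which reads away from it on the other strand. The others are GAL7 chrII:275693-275729 (− strand), GAL2 chrXII:289786-289910 (+), GAL3 chrIV:463136-463172 (+), GCY1 chrXV:550735-550771 (+), GAL80 chrXIII:171412-171448 (+) and PCL10 chrVII:255421-255457 (+).
GAL1: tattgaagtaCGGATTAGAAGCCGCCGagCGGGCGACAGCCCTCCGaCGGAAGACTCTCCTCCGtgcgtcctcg
GAL7: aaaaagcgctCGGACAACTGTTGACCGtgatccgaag
GAL2: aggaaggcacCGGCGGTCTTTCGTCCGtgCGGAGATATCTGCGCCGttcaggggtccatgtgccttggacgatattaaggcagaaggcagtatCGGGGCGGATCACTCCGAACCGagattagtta
GAL3: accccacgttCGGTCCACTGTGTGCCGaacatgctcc
GCY1: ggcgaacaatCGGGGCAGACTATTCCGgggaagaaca
GAL80: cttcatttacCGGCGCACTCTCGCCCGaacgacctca
PCL10: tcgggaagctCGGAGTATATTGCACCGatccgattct
The GAL1 window held 3 matches and that of GAL2 held 4, the last pair of which overlap. The other windows held 1 each, among them both GAL3 and GCY1, which fell, and GAL80 and PCL10, which did not pass the test. PGM2, which fell, held no match within 500 bases. A match is a description of these letters and not a measured site of binding.

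YDR010C (chromosome IV, 465051 to 465383, − strand), an open reading frame just past the end of GAL3 that reads towards it, fell as well (−4.12 ± 0.43, adjusted p = 0.0142). It stood at 72.5, 94.7 and 32.6 CPM in YPGal and 3.03, 1.89 and 1.94 CPM in YPD. No label says whether counting took account of the strand, so reads of this frame and reads past the end of GAL3 cannot be told apart.

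**Figure D3:**
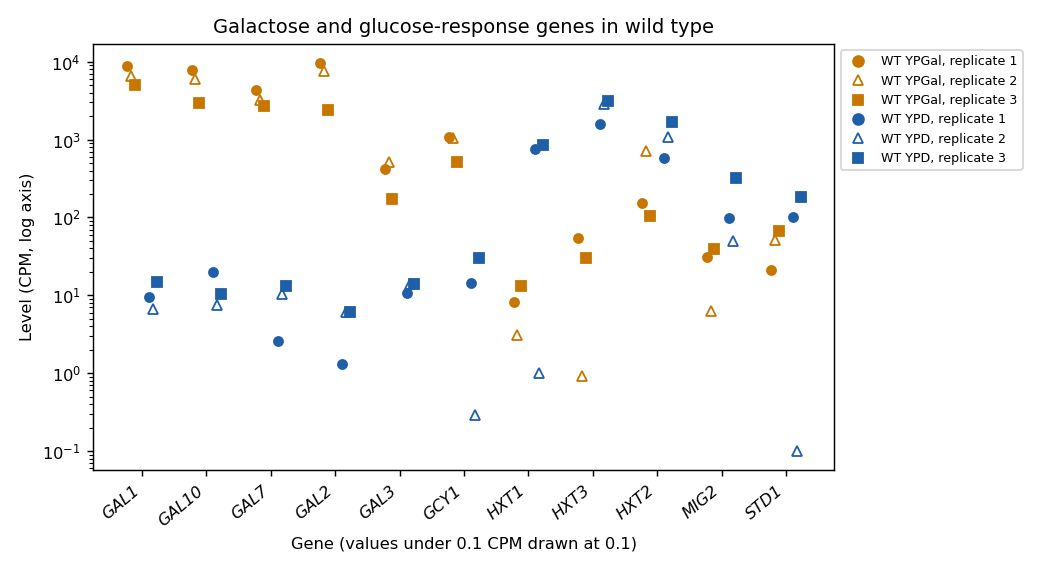
Levels of galactose and glucose-response genes (CPM, log axis) in the 6 wild-type libraries, YPGal in orange and YPD in blue, with replicate 1 as circles, replicate 2 as open triangles and replicate 3 as squares. GAL1 lies at 4970 to 8690 CPM in YPGal and at 6.62 to 14.8 CPM in YPD, while HXT1 lies at 765 and 862 CPM in YPD in replicates 1 and 3 and at 1.01 CPM in replicate 2, where the gene was lost.

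Of the 7 genes that rose, 3 were hexose transporters. HXT1, a low-affinity transporter (YHR094C, chromosome VIII, 290913 to 292625), stood in YPGal at 8.32, 3.11 and 13.2 CPM and in YPD at 765, 1.01 and 862 CPM, the replicate 2 value being one of the lost ones (6.40 ± 0.38, adjusted p = 0.000905). HXT3, also of low affinity (YDR345C, chromosome IV, 1162957 to 1164660), stood at 54.6, 0.917 (lost) and 29.7 CPM in YPGal and 1580, 2900 and 3100 CPM in YPD (5.95 ± 0.58, 0.0142). HXT2, of high affinity (YMR011W, chromosome XIII, 288079 to 289704), stood at 153, 721 and 104 CPM in YPGal and 582, 1080 and 1690 CPM in YPD (3.15 ± 0.51, 0.0469). YPGal and YPD did not overlap in replicates 1 and 3 for any of them, but the YPGal level of HXT2 in replicate 2 was above its YPD level in replicate 1. HXT2 missed the threshold without YPGal replicate 3.

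Other transporters differed between the replicates. HXT4 stood at 24.9 and 28.9 CPM in YPGal and 35.9 and 524 CPM in YPD (replicates 1 and 3), and did not pass the test (2.68 ± 0.84, adjusted p = 0.190). The near-identical high-affinity genes HXT6 and HXT7, whose reads counting can split or drop, were lower in YPD in the replicate 1 pair and slightly higher in the replicate 3 pair. HXT7 stood at 472, 792 and 35.3 CPM in YPGal and 9.08, 32.8 and 41.8 CPM in YPD. Of 15 tested hexose transporter genes 3 were called higher and 0 lower, against 0.11% and 0.567% of all genes. The median difference was −1.33 in the replicate 1 pair and 0.51 in the replicate 3 pair.

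The repressor Rgt1 binds sequences of the form CGGANNA. That motif, searched on both strands and free to overlap the Gal4-type match, was in the 500 bases before HXT1, HXT2 and HXT3, with 4, 2 and 5 matches. It is a common sequence, present before 42.1% of 5844 genes, 21 of the 36 genes that fell (58.3%), 6 of the 7 that rose (85.7%) and 10 of the 12 galactose genes (83.3%). The windows of HXT3 (chrIV:1164963-1165112, − strand) and HXT2 (chrXIII:287639-287698, + strand) show it in capitals, written as it reads on the strand of the gene.
HXT3: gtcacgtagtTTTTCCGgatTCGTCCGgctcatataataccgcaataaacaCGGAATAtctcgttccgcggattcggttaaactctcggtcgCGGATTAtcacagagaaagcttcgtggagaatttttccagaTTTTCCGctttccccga
HXT2: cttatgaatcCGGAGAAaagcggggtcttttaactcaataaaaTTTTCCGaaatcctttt
The HXT3 window held 5 matches and the HXT2 window 2, on either strand.

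Genes of glucose signalling rose as well. MIG2, a repressor induced by glucose, stood at 31.3, 6.24 and 38.8 CPM in YPGal and 98.2, 49.5 and 317 CPM in YPD (2.54 ± 0.37, adjusted p = 0.0407). STD1, which acts with MTH1 in HXT repression, stood at 21.0, 51.4 and 67.1 CPM in YPGal and 99.9, 0 (lost) and 184 CPM in YPD (1.97 ± 0.30, 0.0438). MIG2 lost its call without YPGal replicate 3 (adjusted p = 0.0648) or YPD replicate 3 (0.0785), and STD1 without YPGal replicate 1 (0.105) or YPD replicate 1 (0.132). Both genes were higher in YPD in each pair of replicates 1 and 3. MIG3, a related repressor, stood at 2.77 and 11 CPM in YPGal and 36.3 and 46.2 CPM in YPD and did not pass the test (2.82 ± 0.52, 0.0678). Of 31 genes of glucose sensing and repression 2 were called, both higher, against 0.11% of all genes called higher. SUC2, invertase, was called lower only by the fit of the 4 WT libraries, at 1540 and 351 CPM in YPGal and 69.6 and 138 CPM in YPD (adjusted p = 0.140 in the main test).

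ARI1, an aldehyde reductase, and SST2, which dampens the pheromone signal, were the other genes that rose. ARI1 stood at 11.5, 22.3 and 12.5 CPM in YPGal and 132, 92.1 and 143 CPM in YPD (3.67 ± 0.49, adjusted p = 0.0266), and missed the threshold without YPD replicate 3 (0.0591). SST2 stood at 49.9 and 128 CPM in YPGal and 193 and 309 CPM in YPD (1.76 ± 0.28, 0.0438), with both values of replicate 2 lost, and missed it without YPGal replicate 1 (0.146) or YPD replicate 1 (0.124). The a-specific gene STE2 was also higher in YPD in replicate 1 (255 against 900 CPM) and replicate 2 (115 against 663 CPM) but not in replicate 3. In replicate 3 it stood at only 16.5 and 14.6 CPM. Of the alpha-specific genes there, MF(ALPHA)2 (183 against 638 CPM), SAG1 (189 against 510 CPM) and STE3 (354 against 601 CPM) were higher in YPD. MF(ALPHA)1 was not (2460 against 2330 CPM). None of these mating genes passed the test. Of 17 tested genes of the pheromone response SST2 was the only call, where 0.11% of all genes were called higher. A further 15 genes were at least 2-fold higher in both pairs but not called. Ranked by the smaller of the pair differences, the first 5 were MIG3, YDL241W, BSC1, YNL234W and YHR210C (adjusted p = 0.0678 to 0.199).

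HXK1 and GLK1, kinases that phosphorylate hexoses, fell, and most glycolysis genes did not pass the test. HXK1, a hexokinase, stood at 1220, 1.54 (lost) and 1060 CPM in YPGal and 5.19, 0 (lost) and 68.7 CPM in YPD (−5.46 ± 0.89, adjusted p = 0.0495). GLK1, glucokinase, stood at 2470, 3110 and 372 CPM in YPGal and 110, 503 and 44.2 CPM in YPD (−3.61 ± 0.51, 0.0346). PYK2, a minor pyruvate kinase, stood at 103, 147 and 35.4 CPM in YPGal and 14.3, 1.76 and 10.5 CPM in YPD (−2.11 ± 0.33, 0.0438). GLK1 was lower in YPD in every replicate, although its level in YPD of replicate 2 exceeded that in YPGal of replicate 3. PYK2 was also lower in every replicate, but it lies on a strand that YPD of replicate 2 mostly lost. Without YPGal replicate 1, GLK1 stood at an adjusted p of 0.0535 and PYK2 at 0.218, and without YPD replicate 1 at 0.0991 and 0.142.

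Of 21 genes of this list 3 fell and 0 rose, against 0.567% and 0.11% of all genes. ENO2, an enolase, was not called but stood at 2600, 3090 and 3190 CPM in YPGal and 11100, 8440 and 4640 CPM in YPD, and CDC19, the main pyruvate kinase, at 905, 984 and 1120 CPM against 2910, 2420 and 1490 CPM (adjusted p = 0.351 and 0.263). PDC1, pyruvate decarboxylase, went apart by replicate, from 4140 to 11100 CPM in replicate 1, from 1130 to 11700 CPM in replicate 2 and from 1720 to 1260 CPM in replicate 3. These 3 genes, and the uncalled genes named from here on, were chosen after their values were seen.

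Genes of respiration were lower in YPD, in a group larger than its calls. COX26, a small subunit of cytochrome c oxidase (chromosome IV, 691014 to 691214), stood at 140, 15.4 and 141 CPM in YPGal and 5.62, 2.43 and 6.80 CPM in YPD (−4.33 ± 0.26, adjusted p = 0.000905). STF1, which acts with the inhibitor of the ATP synthase, stood at 259, 346 and 223 CPM in YPGal and 19.0, 36.4 and 47.4 CPM in YPD (−2.78 ± 0.34, 0.0198). These were the 2 calls among 40 genes of the respiratory chain and ATP synthase, where 0.567% of all genes were called lower. Still, 39 of the 40 were at least 2-fold lower in the replicate 1 pair and 27 in the replicate 3 pair, against 794 of 5339 and 265 of 5504 of all genes. Those 27 were at least 2-fold lower in both pairs, where 204 of 5260 genes (3.88%) were. The fit of the 4 WT libraries alone called 37 of 40 lower, against 5.95% of all genes. The median difference was −1.76 in the replicate 1 pair and −1.14 in the replicate 3 pair, and over all genes tested 0.00 and −0.00714. In replicate 2, 25 of the 26 genes read in both media were lower in YPD.

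Subunits of single complexes were lower in YPD in all 3 replicates. ATP1, a subunit of the ATP synthase, stood at 2540, 4430 and 568 CPM in YPGal and 674, 1360 and 236 CPM in YPD. COX6, of cytochrome c oxidase, stood at 786, 810 and 293 CPM in YPGal and 178, 109 and 126 CPM in YPD. QCR2, of the bc1 complex, stood at 1580, 1300 and 215 CPM in YPGal and 358, 519 and 59.2 CPM in YPD. None of these 3 passed the test (adjusted p = 0.196, 0.109 and 0.0770), and YPD of replicate 1 lay above YPGal of replicate 3 for ATP1 and QCR2. The list's summed level was 3.64%, 3.14% and 1.32% of gene counts in YPGal and 0.978%, 0.963% and 0.582% in YPD, so that replicate 3 was lowest in both media.

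Enzymes of the TCA cycle were lower in YPD without a call in the main test. SDH2, of succinate dehydrogenase, stood at 1650 and 247 CPM in YPGal and 98.2 and 75.2 CPM in YPD in replicates 1 and 3 (−2.72 ± 0.58, adjusted p = 0.10). CIT1, citrate synthase, stood at 3330 and 303 CPM in YPGal and 112 and 136 CPM in YPD (−2.84 ± 0.87, 0.187). For both genes the medium difference was larger in replicate 1, where the YPGal level was the higher one. Of 22 tested genes, 16 were at least 2-fold lower in the replicate 1 pair and 10 in the replicate 3 pair. Over all genes these were 794 of 5339 and 265 of 5504. The fit of the 4 WT libraries called 14 of the 22 lower, against 5.95% of all genes. At an unadjusted p under 0.05 edgeR had 16 lower, and DESeq2 called 13. Over all genes, in either direction, 18.2% had such a p and DESeq2 called 6.31%. The median difference was −2.29 and −0.81 in the pairs of replicates 1 and 3. All 10 genes read in both media of replicate 2 were lower in YPD there.

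Genes for growth on non-sugar carbon were lower in YPD in replicate 1 and, where read, mostly in replicate 2, and differed less in replicate 3. PCK1, which starts gluconeogenesis, stood at 518 CPM in YPGal against 2.16 CPM in YPD in replicate 1 and at 77.6 and 32.0 CPM in replicate 3. JEN1, the lactate permease, stood at 2440, 4670 and 82.3 CPM in YPGal and 9.51, 6.68 and 17.5 CPM in YPD. ADH2, the alcohol dehydrogenase that consumes ethanol, stood at 3010 and 88.3 CPM in YPGal and 40.6 and 55.5 CPM in YPD (replicates 1 and 3). None of these passed the test (adjusted p = 0.254, 0.160 and 0.272), and all 3 stood lower in YPGal of replicate 3 than of replicate 1. Over all genes, 794 of 5339 were at least 2-fold lower in the replicate 1 pair and 265 of 5504 in the replicate 3 pair. Of 12 genes of gluconeogenesis and the glyoxylate cycle, 10 and 3 were, with medians of −3.26 and −0.48. Of 25 genes of the peroxisome and fatty acid oxidation at 10 CPM or more, 14 and 1 were, with medians of −2.29 and −0.0816 over the 26 tested. POX1, the first enzyme of that pathway, stood at 288, 184 and 6.24 CPM in YPGal and 2.59, 3.06 and 5.18 CPM in YPD. The 4 lists of gluconeogenesis, peroxisome, other carbon sources and fermentation had 0 calls by edgeR in the main test. At an unadjusted p under 0.05 they had 7, 7, 7 and 4 genes lower, DESeq2 called 0, 2, 3 and 3 lower, and the fit of the 4 WT libraries called 7, 6, 6 and 6 lower. Over all genes, in either direction, 18.2% had such a p and DESeq2 called 6.31%. The fit of the 4 WT libraries called 5.95% of all genes lower. For 22 genes of other carbon sources the medians were −1.60 and −0.000082 (replicates 1 and 3), and for 20 of fermentation and acetate −0.64 and −0.31. Of the genes read in both media of replicate 2, 3 of 4 of gluconeogenesis were lower in YPD there, 9 of 9 of the peroxisome, 6 of 7 of other carbon sources and 4 of 9 of fermentation, with medians of −4.13, −2.23, −1.75 and 0.46.

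That contrast between replicates held over many genes. In the replicate 1 pair 25.5% of 5339 genes were at least 2-fold apart (569 higher and 794 lower), and in the replicate 3 pair 6.12% of 5504 (72 higher and 265 lower). The SD of the log2 differences was 1.17 and 0.59. Across 5260 genes the differences of the pairs correlated at r = 0.656 (Spearman's rho 0.614), with 71.2% of genes on the same side of 0; genes are not independent replicates. Of the 43 called genes 39 had the larger difference in replicate 1.

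**Figure D4:**
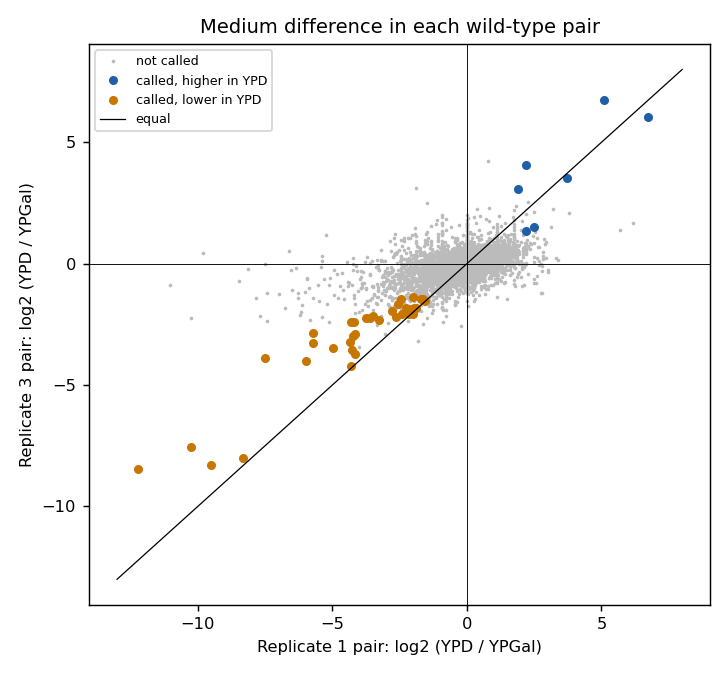
Difference between the media for each gene, log2 of YPD over YPGal, in the replicate 1 pair (x axis) and the replicate 3 pair (y axis) of wild type, with the 43 called genes in colour and the line of equal differences drawn. The cloud is wider along the x axis (SD 1.17 against 0.59), and 39 of the 43 called genes lie farther from 0 along x than along y.

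Of 262 genes at least 4-fold lower in YPD in the replicate 1 pair, 118 were also at least 2-fold lower in the replicate 3 pair and 141 were within 2-fold there. Of the 262, 30 were not lower in the replicate 3 pair, a count that overlaps the 141. For the 141 genes within 2-fold, which these differences chose, the median level was 112 CPM in YPGal of replicate 1 and 39.0 CPM in YPGal of replicate 3, and 10.4 and 29.2 CPM in YPD. In H3i in YPGal, whose replicates 1 and 3 both lacked HIS3 and TRP1 counts, the medians of the same genes were 60.9 CPM (replicate 1) and 97.0 CPM (replicate 3). The choice of these genes favours a high YPGal and a low YPD level in replicate 1, so these WT medians describe the genes and are no finding about the libraries. For the 118 genes lower in both pairs, the medians were 163 and 139 CPM in YPGal of replicates 1 and 3 and 9.73 and 29.3 CPM in YPD. Marker genes, kit and culture change together between these replicates of WT and cannot be told apart here.

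Some genes of storage carbohydrates and of the stress response fell. GPH1, glycogen phosphorylase, stood at 215, 205 and 482 CPM in YPGal and 3.03, 4.84 and 47.0 CPM in YPD (−4.22 ± 0.67, adjusted p = 0.0438). GSY2, glycogen synthase, stood at 147, 124 and 192 CPM in YPGal and 30.7, 48.8 and 51.6 CPM in YPD (−1.91 ± 0.25, 0.0266). The media did not overlap for either gene over the 3 replicates, though GSY2 missed the threshold without YPGal replicate 1 (0.0560) or YPD replicate 3 (0.0511). Of 20 tested genes of glycogen and trehalose these 2 fell, and 6 of 19 at 10 CPM or more were at least 2-fold lower in both pairs, where 0.567% of all genes fell and 3.88% were 2-fold lower in both pairs. USV1, a zinc finger factor, stood at 124, 197 and 118 CPM in YPGal and 4.76, 17.8 and 11.7 CPM in YPD (−3.71 ± 0.34, 0.0140). XBP1, a repressor induced by stress, stood at 79.6 and 83.8 CPM in YPGal and 3.03 and 14.8 CPM in YPD in replicates 1 and 3 (−3.11 ± 0.47, 0.0438). They were the 2 calls among 48 general stress genes, and 17 of 43 at 10 CPM or more were at least 2-fold lower in both pairs, against the same shares of all genes. The list's median was −1.52 and −0.86 in the pairs of replicates 1 and 3. For these 48 genes, the fit of the 4 WT libraries called 22 lower, against 5.95% of all genes. edgeR had 22 lower at an unadjusted p under 0.05, and DESeq2 called 14. For the 20 glycogen and trehalose genes these counts were 9, 14 and 8 lower, with 0, 1 and 1 higher. Over all genes, in either direction, 18.2% had such a p and DESeq2 called 6.31%.

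In the list of nitrogen and vacuole genes, 2 genes of proline use fell out of 20 tested, against 0.567% of all genes. PUT4, the proline permease, stood at 1050, 1250 and 67.1 CPM in YPGal and 16.0, 1.65 and 8.32 CPM in YPD (−4.31 ± 0.67, adjusted p = 0.0438). PUT1, proline oxidase, stood at 362, 469 and 33.6 CPM in YPGal and 55.4, 131 and 11.3 CPM in YPD (−1.98 ± 0.31, 0.0438), and missed the threshold without YPGal replicate 1 (0.132) or YPD replicate 1 (0.172). Both were lower in YPD in every replicate, although PUT4 lies on a strand that YPD of replicate 2 mostly lost. Both were lower in replicate 3 than in replicate 1 in each medium. The median of the 20 tested genes was −0.78 and −0.87 in the pairs of replicates 1 and 3.

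The remaining 17 genes that fell belonged to none of the lists and were not among the 12 lowest. OPI3, of phosphatidylcholine synthesis, stood at 381 and 169 CPM in YPGal and 51.0 and 35.1 CPM in YPD (−2.41 ± 0.25, adjusted p = 0.0142). PRX1, a mitochondrial peroxiredoxin, stood at 413, 617 and 266 CPM in YPGal and 64.4, 96.6 and 60.1 CPM in YPD (−2.25 ± 0.32, 0.0345). PBI2, an inhibitor of proteinase B, differed by −3.24 ± 0.44, the aminopeptidases APE1 and LAP3 by −2.11 ± 0.23 and −1.55 ± 0.25, and YPS6, an aspartic protease of the cell surface, by −2.82 ± 0.33. The others were GOR1, a glyoxylate reductase, GTT1, a glutathione transferase, GSC2, a glucan synthase, GSP2, ATG33, HOR7, ISF1, YHR033W, YOR289W, YDL124W and YBR053C, with differences from −3.53 (YHR033W) to −1.58 (ATG33). Of the 17, 9 missed the threshold when 1 of the 4 WT libraries was left out, with adjusted p up to 0.176: YOR289W, PRX1, YDL124W, GSP2, HOR7, GSC2, YBR053C, ATG33 and LAP3.

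Short motifs of other regulators were counted before the called genes. The Mig1 core, taken as GGGG preceded by C or T and before that by G or C, on either strand, was within 500 bases of 17 of 36 genes that fell (47.2%) and of 22.6% of all 5844 genes. AGGGG, the stress element read by Msn2 and Msn4, was before 28 of the 36 (77.8%) and 34.3% of all genes. For the 7 genes that rose these counts were 4 and 4. No test of these shares was made.

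Genes of ribosomes and protein synthesis were higher in YPD, by more in the replicate 1 pair than in the replicate 3 pair, and had no calls in the main test. Of 134 genes of cytosolic ribosomal proteins at 10 CPM or more, 107 were at least 2-fold higher in the replicate 1 pair and 0 in the replicate 3 pair. Over all genes these were 569 of 5339 and 72 of 5504. The median difference over the 138 tested was 1.14 and 0.55, and 101 of 107 genes read in both media of replicate 2 were higher there. Many of these genes are paralog pairs that can share reads. Their summed level was 10.4%, 11.4% and 10.1% of gene counts in YPGal and 19.2%, 18.8% and 14.2% in YPD, with no overlap between the media. RPS28B, of the small subunit, stood at 99.8, 163 and 90.4 CPM in YPGal and 338, 736 and 163 CPM in YPD (1.46 ± 0.43, adjusted p = 0.173). edgeR had 40 of the 138 higher at an unadjusted p under 0.05 in the main test, DESeq2 called 23 higher, and the fit of the 4 WT libraries called 3 higher, against 1.49% of all genes. Over all genes, in either direction, 18.2% had an unadjusted p under 0.05 and DESeq2 called 6.31%.

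For 109 genes of ribosome biogenesis the medians were 1.19 and 0.33, with 92 at least 2-fold higher in the replicate 1 pair and 0 in the replicate 3 pair. Over all genes these were 569 of 5339 and 72 of 5504. edgeR had 68 higher at an unadjusted p under 0.05, and DESeq2 called 10, against 18.2% and 6.31% of all genes in either direction. The fit of the 4 WT libraries called 6 of the 109 higher, against 1.49% of all genes. In replicate 2, 28 of 53 genes read in both media were higher and 25 lower. KRR1, of small subunit assembly, stood at 101 and 351 CPM in YPGal and 228 and 595 CPM in YPD in replicates 1 and 3. Both media of replicate 3 lay above both of replicate 1 for this gene, and the list's summed level was 1.72% and 4.42% in YPGal and 3.39% and 5.19% in YPD. For 25 translation factors the medians were 0.98 and 0.38, and all 18 read in replicate 2 were higher there. At an unadjusted p under 0.05, 5 of the 25 were higher, and DESeq2 called 1 higher. Those shares of all genes count both directions, so they are not a like measure for these counts. Mitochondrial ribosomal protein genes went the other way, with medians of −0.73 and −0.56 over 76 genes. They had 0 calls by edgeR in the main test (52 lower at an unadjusted p under 0.05). DESeq2 called 6 lower, where it called 6.31% of all genes in either direction. The fit of the 4 WT libraries called 12 lower, against 5.95% of all genes. Within that list MRPL4 stood at 177, 180 and 79.9 CPM in YPGal and 59.7, 76.6 and 29.6 CPM in YPD (adjusted p = 0.0593).

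Other lists had no calls in the main test, though some of their genes differed. Medians in the pairs of replicates 1 and 3 were 0.34 and 0.13 for 57 genes of amino acid synthesis, 0.66 and 0.44 for 31 of purine and pyrimidine synthesis, and 0.47 and 0.11 for 26 of ergosterol synthesis. They were −0.20 and −0.20 for 19 hypoxic and mannoprotein genes, −0.28 and 0.0183 for 16 phosphate genes, 0.000845 and −0.0143 for 19 genes of iron uptake, −0.33 and −0.39 for 27 of mitochondrial import, and 0.22 and −0.15 for 32 cyclin and cell cycle genes. None of these 8 lists had a call by edgeR in the main test. Of their 227 genes 42 (18.5%) had an unadjusted p under 0.05, against 18.2% of all genes, and DESeq2 called 23 (10.1%), against 401 of all 6354 genes (6.31%). The fit of the 4 WT libraries called 23 of the 227, against 7.44% of all genes. It called 4 of 31 purine and pyrimidine genes higher, against 1.49%. Of 12 hypoxic and mannoprotein genes at 10 CPM or more, 4 were at least 2-fold lower in both pairs, against 3.88% of all genes. PHO89, a phosphate transporter, stood at 123 and 1170 CPM in YPGal and 1.73 and 155 CPM in YPD in replicates 1 and 3 (−3.77 ± 1.0, adjusted p = 0.141). FET3, an oxidase of iron uptake, stood at 482, 4530 and 567 CPM in YPGal and 572, 625 and 539 CPM in YPD, so that YPGal of replicate 2 stood alone. Replicate 2 in YPGal also held FIT2, a cell wall protein of iron uptake, at 3050 CPM, against 21.8 and 76.5 CPM in replicates 1 and 3, and the iron list took 2.48% of its gene counts against 0.195% to 0.413% in the other 5 libraries. Core histone genes, which H3i alters, gave medians of −0.0578 and 0.102 over 11 genes in WT, with 0 calls by edgeR (1 at an unadjusted p under 0.05) or DESeq2. HHT2 stood at 911, 1300 and 936 CPM in YPGal and 781, 834 and 793 CPM in YPD (−0.07 ± 0.50, adjusted p = 0.966), and all 9 histone genes read in both media of replicate 2 were lower in YPD there.

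**Figure D5:**
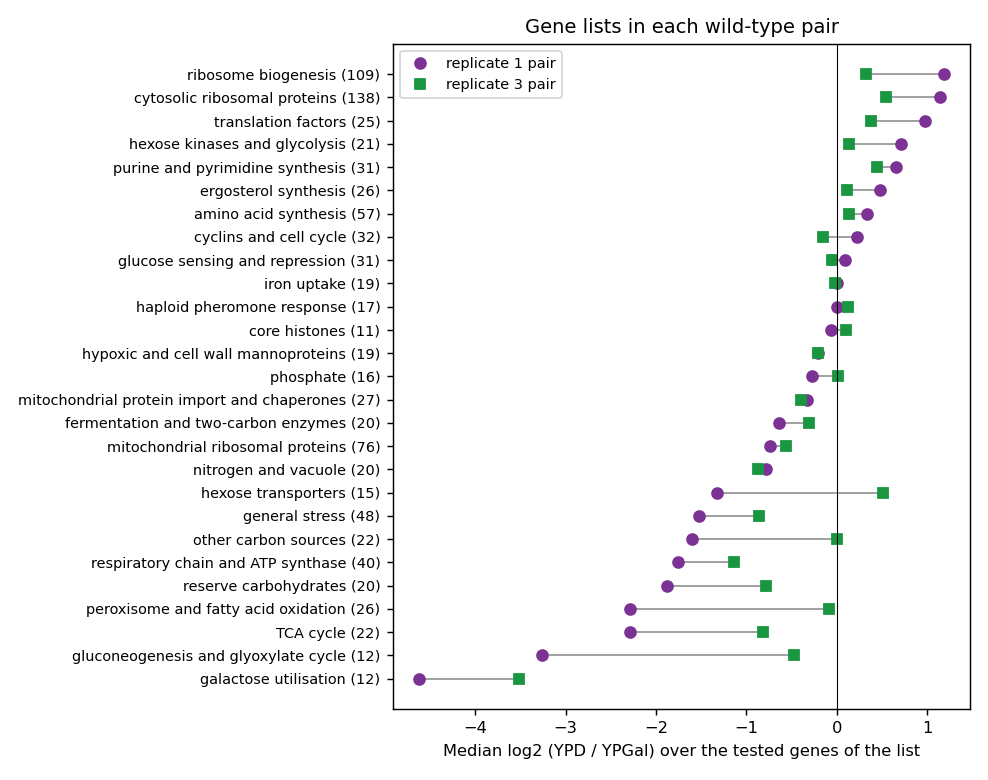
Median difference between the media, log2 of YPD over YPGal (x axis), for 27 gene lists (y axis, number of tested genes in brackets) in the replicate 1 pair (circles) and the replicate 3 pair (squares) of wild type. In 21 of the 27 lists the median lies farther from 0 in the replicate 1 pair, as for the TCA cycle at −2.29 against −0.81, and in 6 the medians have opposite signs.

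Replicate 2, which the test did not use, was read for 25 of the 43 called genes, and 24 of them differed in the same direction there. Among the 24, PUT4, PYK2 and GSP2 are C-strand genes of chromosome XV, where YPD lost 80.9% of genes and YPGal 5.70%. They stood at 1.65, 1.76 and 4.57 CPM in YPD of replicate 2, where partial loss and a medium difference cannot be told apart. Of all tested genes read in replicate 2, 1645 of 2463 (66.8%) had the direction of the fit. ATG33 was the exception, at 17.1 CPM in YPGal against 25.8 CPM in YPD. Among the 204 genes at least 2-fold lower in both other pairs, 85 of 88 read in replicate 2 were lower there, and among the 22 higher ones 6 of 6 were higher. Genes far under replicates 1 and 3 in a medium are not read, which itself removes some disagreement. These counts, and those of read genes in the lists, are therefore no separate check of direction. Of called genes not read, XBP1, YBR053C, APE1, STD1 and HXT1 went the other way in replicate 2. The others went the same way, except YPS6, which had 0 counts in both media. A fit of all 6 WT libraries over genes read in replicate 2, with the replicate as a block, called 8 genes: GAL1, GAL10, GAL7, GAL2, GAL3, YDR010C, PRX1 and INH1, the inhibitor of the ATP synthase. INH1 was the only one of them not called with replicates 1 and 3, and stood at 335, 635 and 254 CPM in YPGal and 58.8, 116 and 57.7 CPM in YPD (−2.19 ± 0.22, adjusted p = 0.0470).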

How the data were processed

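Poly(A) RNA-seq counts per gene were analysed, as the authors deposited them for each library (7127 features, whole counts, not normalized). The submitters' processing notes name sacCer3 as the build, and HISAT2, SAMtools, Picard, FastQC and DESeq2 as tools, without versions. Neither the counting tool nor its strand setting is given in the sources used here. The 5 entries naming no gene held 23.2% to 28.1% of counts in the WT libraries of replicates 1 and 3 and 66.3% to 70.7% in replicate 2, and were left out. Symbols and coordinates came from RefSeq R64 for the 6047 features with a locus tag.

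The test was edgeR 4.0.16 (R 4.3.3, quasi-likelihood, TMM, filterByExpr) on replicates 1 and 3 of WT and H3i, with a block for each strain and replicate number and a medium term in each strain (2 residual degrees of freedom, common biological coefficient of variation 0.257). The SE is the absolute log2 fold change over the square root of F. Differences within a pair used log2(TMM-scaled CPM + 0.5), and replicate 2 was scaled by its total alone. Same-numbered libraries deviated together from their group means in all 18 pairs (r = 0.335 to 0.784, over all 12 libraries), and this check is where the pairing comes from. The means include replicate 2, whose loss can move the other replicates the same way. So the check cannot show that the media of a replicate share a culture. WT media of the same number gave r = 0.335 to 0.407, and WT with H3i in YPGal gave 0.734 to 0.784. The procedure was tested on simulated data. DESeq2 1.42.0 and limma 3.58.1 (voom) were among the alternatives.

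Genes named are the 12 called genes with the highest and lowest changes (filled up, where fewer were called, with genes at least 2-fold apart in both pairs), up to 4 called genes per list, and all galactose, mating and marker genes; others were chosen after their values were seen. The comparison and the 30 lists were chosen with earlier results of these data known. Intervals, where a count limits a level, cover counting error only.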

Additional observations from a re-analysis of the deposited data

Results flagged for a closer look

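The response of WT to YPD was set against that of H3i by the interaction term of the same edgeR fit, and 33 of the 94 genes named here and tested differed by it, which is what singled them out. The term was called for 1661 of 6354 genes (26.1%), so a call on it is common. Without the replicate block it was called for 25 genes, 1 of the 33 among them (HHT2, adjusted p = 0.0439), and with 12 libraries for 0. H3i loses its H3 supply in YPD by design, so the H3i response is to the sugar and the shut-off together, and they cannot be told apart. Values are the log2 fold change of WT minus that of H3i, with its adjusted p in brackets.

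Of the 33 genes 23 were called in WT. In 10 of these the fitted values had opposite signs in the strains. GPH1, glycogen phosphorylase, differed by −4.46 (0.0153), from −4.22 in WT and 0.24 in H3i, and GSY2, glycogen synthase, by −2.66 (0.00964), from −1.91 and 0.75. YPS6, an aspartic protease, differed by −4.09 (0.00648), from −2.82 and 1.27, and YDL124W by −3.21 (0.00964), from −2.05 and 1.16. XBP1, a repressor, differed by −3.53 (0.0134), PYK2, a pyruvate kinase, by −3.08 (0.0103), PRX1, a peroxiredoxin, by −2.98 (0.0103) and APE1, an aminopeptidase, by −2.71 (0.00681). GOR1 differed by −2.92 (0.0133) and GSC2 by −1.75 (0.017), with H3i values of 0.04 and 0.06.

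In the other 13 the sign was shared and the WT value was farther from 0. GAL7 differed by −3.78 (0.0350), GLK1 by −2.68 (0.0261), YDR010C by −2.51 (0.0180), PGM2 by −2.23 (0.0250), YHR033W by −2.07 (0.0251), USV1 by −1.75 (0.0269), GTT1 by −1.75 (0.0133), GSP2 by −1.71 (0.0170), OPI3 by −1.47 (0.0211), HOR7 by −1.43 (0.0454), ATG33 by −1.40 (0.0232) and COX26 by −1.38 (0.0232). STD1, which rose, differed by 1.44 (0.0419), from 1.97 in WT and 0.54 in H3i.

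The other 10 genes were not called in WT. HHT2, the H3 gene under the GAL1 promoter in H3i, differed by 7.37 (0.00678), from −0.07 in WT and −7.44 in H3i. Mating and marker genes, by which WT replicate 3 stands apart, were MF(ALPHA)1 (−5.24, 0.0108), STE3 (−3.14, 0.0199), MFA2 (2.03, 0.0293), STE6 (1.53, 0.0440), URA3 (2.58, 0.0221) and LEU2 (−1.87, 0.0347). RPS28B differed by 3.13 (0.0155), FIT2 by −2.79 (0.0406) and KRR1 by 1.20 (0.0487).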

How the results depend on the processing

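The count of 43 called genes depended on the libraries and the model. It was 5 without the replicate block, 444 with the 4 WT libraries alone, 1 with 12 libraries and the strain-by-replicate block, and 4 with 12 libraries and a kit term. With 6 WT libraries it was 0 with the replicate block (324 at an unadjusted p under 0.05) and 4 without it. DESeq2 gave 401, limma-voom 67 and no filter on low counts 89. Fits that leave out WT libraries rest for WT on a single pair, so their counts are not separate checks. Leaving out each WT library in turn gave 35 to 231 calls. By library, 28 of the 43 were kept without YPGal replicate 1, 30 without YPD replicate 1, 38 without YPGal replicate 3 and 33 without YPD replicate 3, and 25 were kept whichever was left out. Of alternatives added after seeing the data, genes read in replicate 2 alone gave 8 and leaving out both WT libraries of replicate 3 gave 493. A block shared by the strains (49), RLE (29), library totals (39) and no replicate 1 (35) stayed within 1.5 times. The interaction count of 1661 was 25 without the block and 0 with 12 libraries (790 at an unadjusted p under 0.05, edgeR). The 226 genes 2-fold apart in both pairs ranged from 170 to 293 over 5 settings. No named gene changed direction where it was called. Library totals moved the median of all genes from 0.00685 to −0.146. The cause of these shifts was not tested. Depth in replicate 1 limits levels under about 1.30 CPM.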
